A study of Mus musculus with 8 samples.

Results

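The genes of 10 subunits of the BAF chromatin remodelling complex were examined in an ATAC-seq map of cerebellar granule neuron progenitors (GNPs): Smarca2, Smarca4, Smarcc1, Smarcc2, Arid1a, Arid1b, Actl6a, Actl6b, Dpf1 and Dpf3. ATAC-seq uses the Tn5 transposase, which inserts sequencing adapters into open DNA, so that a peak marks accessible chromatin. The 10 genes were chosen by name among the 21951 protein-coding genes of the mouse annotation, and the window of a gene was its GENCODE gene body with 10 kb on each side. Their windows covered 1371 kb and held 147 of the 152984 WT peaks, 106 of the 106974 het peaks and 166 of the 174407 mutant peaks. For the comparison of progenitor with neuronal subunits, the progenitor group was Actl6a, Phf10 and Smarcc1 and the neuronal group was Actl6b, Dpf1 and Dpf3. Phf10 was added for that comparison and is not counted among the 10.

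The GNPs came from the cerebellum of P7 mice that received no treatment, and the labels give the genotypes Chd7 wild type (WT), Chd7 het and Chd7 mutant. The label for strain reads C56Bl6/J in all groups, while the study's methods name another C57BL/6 substrain. In the study, Chd7 was deleted with Atoh1-Cre, a Cre driven by the Atoh1 gene in the granule cell lineage, from 1 floxed allele in het and from both in mutant animals. The WT animals of its other assays carried the floxed alleles without Cre, and for ATAC-seq the genotype is given only as WT. The 3 WT, 3 mutant and 2 het libraries were pooled within each group before peaks were called, and the study calls the WT and mutant replicates technical. Each group was therefore 1 list with no replicate error and no test. Intervals of shares and tag ratios cover counting error alone. Those of medians cover the spread over peaks, taken as independent.

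Chd7 itself had a peak within 1 kb of a transcription start site (TSS) in all 3 lists, with 57 summit tags in WT, 69 in het and 52 in mutant. A peak at a TSS does not check the deletion. Among 8 GNP markers, 7 had a TSS peak in WT (Atoh1, Pax6, Zic1, Barhl1, Mycn, Gli1 and Neurod1, with Zic2 lacking one), 7 in het and 8 in mutant. Markers of other cells had TSS peaks too, namely 3 of 3 of mature granule neurons, 4 of 4 of astrocytes and Bergmann glia, 3 of 4 of Purkinje cells (Pcp2 lacking), 2 of 3 of the oligodendrocyte lineage (Sox10 lacking), 2 of 3 of microglia (Cx3cr1 lacking) and 2 of 2 of endothelium in WT. A TSS peak was present for 69.4% of all protein-coding genes in WT, so such a peak says little about which cells were sampled. The part of other cells in the results was not tested.

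BAF complexes use the energy of ATP to move or evict nucleosomes, and they are assembled from subunits that exist in several versions. Smarca2 and Smarca4 encode the alternative ATPases, Smarcc1 (BAF155) and Smarcc2 (BAF170) scaffold subunits, and Arid1a and Arid1b large subunits with an ARID DNA-binding domain. As neural progenitors leave the cell cycle, Actl6a (BAF53a) is exchanged for Actl6b (BAF53b). Phf10 (BAF45a) is exchanged for Dpf1 (BAF45b) or Dpf3 (BAF45c). These exchanges are part of the change from the progenitor to the neuronal complex. Actl6a and Actl6b are actin-related proteins, and Phf10, Dpf1 and Dpf3 are proteins with PHD fingers, which in this family read histone tails.

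The promoter DNA of the 6 compared genes is shown because the switch is one of gene expression and all 6 promoters held a peak. The stretches below are upstream of the TSS in the RefSeq promoter table for GRCm38.p6, end before the first annotated exon base and run 5′ to 3′ along the gene. Capitals mark the GC box GGGCGG and the CCAAT box, read on both strands like all motifs here. They also mark the E-box CAGCTG. The ETS motif CCGGAAG and the NRF1 motif are in capitals too, and tandem GC boxes may overlap each other. The 3 progenitor promoters lie at chr3:32708296-32708506 (Actl6a, plus strand), chr17:14961274-14961510 (Phf10, minus strand) and chr9:110131774-110131979 (Smarcc1, plus strand).
Actl6a: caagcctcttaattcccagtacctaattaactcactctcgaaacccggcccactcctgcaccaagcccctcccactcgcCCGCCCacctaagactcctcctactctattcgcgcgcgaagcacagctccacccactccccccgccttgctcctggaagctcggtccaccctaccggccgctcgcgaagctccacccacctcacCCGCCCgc
Phf10: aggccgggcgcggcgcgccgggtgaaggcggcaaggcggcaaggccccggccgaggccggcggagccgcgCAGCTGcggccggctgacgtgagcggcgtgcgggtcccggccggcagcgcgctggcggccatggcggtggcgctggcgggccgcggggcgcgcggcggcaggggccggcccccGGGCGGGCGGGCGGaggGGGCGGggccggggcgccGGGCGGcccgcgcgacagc
Smarcc1: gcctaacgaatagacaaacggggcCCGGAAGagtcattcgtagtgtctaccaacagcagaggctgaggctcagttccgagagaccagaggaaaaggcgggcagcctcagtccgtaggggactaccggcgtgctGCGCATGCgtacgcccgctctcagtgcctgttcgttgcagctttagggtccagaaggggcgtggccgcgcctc

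The 3 neuronal promoters lie at chr5:137553296-137553516 (Actl6b, plus strand), chr7:29303755-29303950 (Dpf1, plus strand) and chr12:83487737-83487986 (Dpf3, minus strand).
Actl6b: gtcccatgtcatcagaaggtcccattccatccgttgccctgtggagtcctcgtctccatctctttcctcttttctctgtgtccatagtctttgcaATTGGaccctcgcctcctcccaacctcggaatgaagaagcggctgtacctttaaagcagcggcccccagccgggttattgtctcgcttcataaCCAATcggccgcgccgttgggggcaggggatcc
Dpf1: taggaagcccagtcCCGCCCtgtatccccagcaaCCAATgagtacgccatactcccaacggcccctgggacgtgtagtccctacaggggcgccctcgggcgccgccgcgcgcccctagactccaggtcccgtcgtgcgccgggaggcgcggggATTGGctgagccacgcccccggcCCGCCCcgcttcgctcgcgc
Dpf3: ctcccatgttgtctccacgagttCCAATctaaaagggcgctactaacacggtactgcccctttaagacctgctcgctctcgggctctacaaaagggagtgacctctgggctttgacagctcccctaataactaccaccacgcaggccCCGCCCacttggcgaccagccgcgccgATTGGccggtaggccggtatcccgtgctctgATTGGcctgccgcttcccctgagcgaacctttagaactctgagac

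All 11 genes were matched in the RefSeq table, with 12 promoter entries since Arid1a has 2. In windows of 300 bases, 250 before to 50 after the TSS, a GC box was found in 12 of the 12 entries and in 35.7% of all 32851 promoters. A CCAAT box was found in 3 of the 12, which were Actl6b, Dpf1 and Dpf3, against 37.4% of all promoters. That is 1 of 10 motifs searched, in a share of the entries no higher than that of all promoters. The NRF1 motif GCATGCGC was found at Smarca4 and Smarcc1 (2.71% of all promoters), the ETS motif at Smarca2 and Smarcc1 (8.86%), CAGCTG at Phf10 (16.3%) and the E-box CAGATG at Smarcc1 (17.2%). The left part of the REST site (TTCAGCACC), the repressor that silences neuronal genes outside neurons, was in none of the 12 entries and in 0.371% of all promoters, and its right part (GGACAGNGC) was at Arid1a and Arid1b (1.91%). The NFI motif TTGGCA (14.1% of all promoters) and the CRE TGACGTCA (1.79%) matched none of the 12. All 12 entries were GC-rich, from 55.3% at Dpf3 to 87.0% at Phf10 against a median of 52.7%, and their ratio of observed to expected CpG ran from 0.769 to 1.16 against a median of 0.384. These matches describe letters in the windows and not bound sites.

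Promoter peaks did not set all 3 progenitor subunits apart from the 3 neuronal ones in these progenitors. By height within each list, Actl6a and Smarcc1 stood above the neuronal promoters and Phf10 stood below them. Peaks were ranked within each list by their deposited -log10 q, with 100 for the strongest. Ranks were used because het peaks were called with other settings and their heights cannot be set beside the others. Het tags are printed for the record and are not compared with WT or mutant tags. A -log10 q of 10 or more was reached by 56178 of 152984 WT peaks and 53115 of 106974 het peaks. Equal ranks in WT and het therefore do not mean equal strength. Actl6a had the tallest WT promoter peak of the 11 genes, with 101 summit tags in WT, 183 in het and 96 in mutant. It ranked 99.7, 99.9 and 99.2. The annotated gene body starts 2.33 kb upstream of that summit, and the RefSeq start lies inside the peak (chr3:32708246-32709355). Smarcc1 has an upstream start that it shares with the divergent gene Dhx30 and an internal one 14.2 kb downstream. The shared promoter peak had 59, 101 and 67 tags in WT, het and mutant (ranks 94.3, 95.2 and 96.0), and the internal one had 58, 95 and 64 tags (ranks 95.3, 95.9 and 96.2). Both Smarcc1 starts were thus of like height in each list.

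Phf10, the third progenitor subunit, had the fewest tags at its promoter peak among the 11 genes, while by rank the Dpf1 peak was lower in each list. Around its start were 3 small WT peaks with 14, 9 and 14 tags, and in the mutant list the 2 nearest the TSS were covered by 1 peak of 23 tags. The tallest WT promoter peak of Phf10 ranked 53.0, the tallest in het 46.6 with 18 tags, and that in mutant 77.5. By height this WT peak stood at percentile 6.16 of the promoter peaks of all protein-coding genes. Actl6a by contrast stood at percentile 98.1 and Smarcc1 at 60.6. The neuronal promoters stood between Smarcc1 and Phf10 in WT, at 56.3 (Dpf3), 44.6 (Actl6b) and 14.0 (Dpf1).

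Among the neuronal subunits, the Actl6b promoter was open in all 3 lists, with 48 tags in WT, 42 in het and 42 in mutant. Its ranks were 94.2 in WT, 79.8 in het and 91.9 in mutant, so the het list placed it lower than the others did. The Dpf3 promoter had 56, 78 and 57 tags in WT, het and mutant and ranks of 92.9, 91.6 and 93.4. Dpf1 had a weak peak at its gene start, with 21 tags in WT, 29 in het and 33 in mutant. Its -log10 q was 6.67 in WT, and it ranked 45.3 in het and 74.2 in mutant. Its tallest WT peak by the fixed rule was at a downstream start 11.4 kb into the gene, where WT had 22 tags and mutant 23. Thus 1 subunit of each kind (Phf10 and Dpf1) had a weak promoter and the others ranked above 90 in WT. The median rank of promoter peaks over all protein-coding genes was 91.2 in WT, 89.0 in het and 92.4 in mutant.

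**Figure D1:**
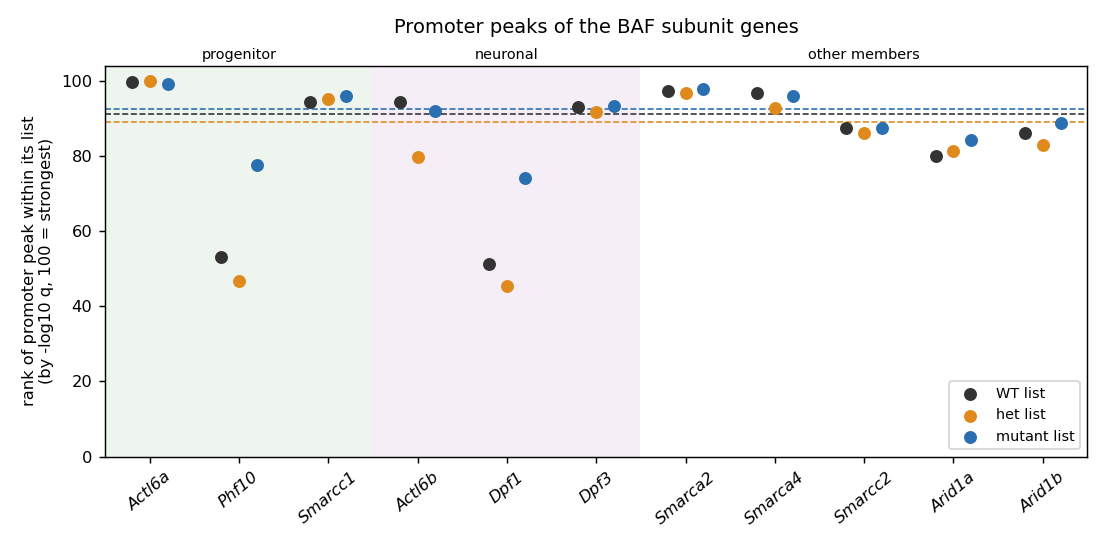
Rank of the tallest peak within 1 kb of a TSS (vertical axis, by -log10 q within each list, 100 is the strongest) for the 11 genes, with 1 point per pooled list and dashed lines at the median promoter rank of all protein-coding genes in that list. Phf10 and Dpf1 lie between 45.3 and 77.5, and the 3 points of the Actl6a gene lie at 99.2 or above.

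The promoters of the remaining 5 members ranged from middling to strong. Smarca2 had 96, 149 and 101 tags in WT, het and mutant and Smarca4 had 70, 87 and 67, which placed the ATPase promoters at percentiles 96.7 and 76.2 of WT promoter peaks. Smarcc2 had 49, 74 and 50 tags, Arid1a 52, 76 and 57, and Arid1b 61, 86 and 65. These 3 stood at percentiles 45.7, 50.5 and 63.3 by WT height, and their WT ranks of 87.4, 80.1 and 86.2 were below the median of 91.2 for all promoter peaks. Their order was the same for WT and mutant: Smarca2 highest, then Smarca4, Arid1b, Arid1a and Smarcc2. The 17 other BAF subunit genes examined, among them Smarcb1, Smarce1, Dpf2, Brd9, Ss18 and Ss18l1, had a TSS peak in 17 of 17 cases in each list.

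Between WT and mutant, promoter height was compared as the log2 ratio of summit tags divided by the tags of the list, since those lists were called with like fragment lengths (90 bp and 88 bp) and 50394313 and 51030229 tags. Their headers give different tag sizes, 107 bp for WT and 76 bp for mutant, whose part in the ratios was not tested. The interval beside each ratio is an exact binomial one for the tags at both summits. Actl6a changed by -0.09 (-0.51 to 0.33), Smarcc1 by 0.17 (-0.36 to 0.70) at its shared start and 0.12 (-0.41 to 0.66) at the internal one, and Actl6b by -0.21 (-0.84 to 0.42). Dpf3 changed by 0.01 (-0.55 to 0.57), and Dpf1 by 0.63 (-0.20 to 1.50) at its gene start. At Phf10, the peak nearest the TSS changed by 0.70 (-0.32 to 1.77). None of these intervals excluded 0. A smaller Phf10 peak near the start, with 9 tags in WT, lay under the same mutant peak of 23 tags, so that its change of 1.34 (0.17 to 2.63), past the fold of 1 used for calls below, did not compare like summits. The largest of the log2 ratios were at the promoters with the fewest tags, Phf10 and Dpf1. Shared promoter peaks of all protein-coding genes had a median change of 0.05 with a central 95% from -0.37 to 0.49. Among the 17 other subunits, the promoter was lower in mutant in 8 and higher in 9, from -0.17 to 0.37.

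Loss and gain of peaks was counted next, where a peak was shared when it overlapped a peak of the other list by at least 1 bp. Among the 147 WT peaks of the 10 genes, 20 were missing in mutant (13.6%, 95% Wilson interval 8.98 to 20.1), against 22.8% of all WT peaks. Among the 166 mutant peaks, 37 were missing in WT (22.3%, 16.6 to 29.2), against 30.7% of all mutant peaks. Both shares lay below those of the whole lists. The unshared peaks were mostly weak, as over the whole lists. Among WT peaks with a -log10 q of at least 5, 4 of 106 were without a mutant peak (3.77%, against 5.78% of all WT peaks at that level). At 10 or more, 0 of 58 WT peaks were, against 0.456% of all WT peaks. Of the mutant peaks at 10 or more, 2 of 62 were without a WT peak (3.23%, against 1.21% of all mutant peaks), so that the order turned. Peak position matters for this comparison because 9.64% of WT peaks within 1 kb of a TSS were unshared over the whole list and 25.4% of those elsewhere. For the 10 genes these shares were 1 of 36 near a TSS (2.78%) and 19 of 111 elsewhere (17.1%).

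The het list held a peak at 102 of the 147 WT peaks (69.4%, 61.5 to 76.3), against 63.1% of all WT peaks. It held one at 110 of the 166 mutant peaks (66.3%, 58.8 to 73.0), against 58.7% of all mutant peaks. After peaks closer than 300 bp were joined, the 10 genes had 162 regions, of which 89 were held by all 3 lists (54.9%), against 45.7% of all 190582 joined regions. Another 25 were in WT and mutant, 16 in WT alone, 22 in mutant alone, 6 in het and mutant, 2 in WT and het and 2 in het alone. The het list has fewer tags and wider peaks, so its share depends on those settings as well as on genotype, and these cannot be told apart.

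Peaks were then counted in the progenitor and neuronal windows. The progenitor windows had 13 WT, 11 het and 12 mutant peaks in 219 kb. All 13 WT peaks had a mutant peak (0 unshared, interval 0 to 22.8%), all 12 mutant peaks had a WT peak (0 to 24.2%), and 12 of 13 had a het peak. Only 3 of these 13 peaks lay away from any TSS, as 6 were at the genes' own starts and 4 at those of neighbours (Mrpl47 and Ndufb5 near Actl6a, Cspg5 near Smarcc1, and 1600012H06Rik and Wdr27 near Phf10). The neuronal windows had 29 WT, 23 het and 33 mutant peaks in 364 kb, 22 of the WT peaks away from any TSS. Of those 22, 18 were in the 294 kb window of Dpf3, 1 at Actl6b and 3 at Dpf1, so that without Dpf3 the neuronal genes had 4 such peaks against 3 in the progenitor genes. Of those 29, 2 were missing in mutant (6.9%, 1.91 to 22%), and 6 of the 33 mutant peaks were missing in WT (18.2%, 8.61 to 34.4). Over the whole lists, 22.8% of WT peaks and 30.7% of mutant peaks were unshared, and 63.1% of WT peaks had a het peak. Of all WT peaks, 9.64% of those near a TSS and 25.4% of those elsewhere were unshared. Near a TSS lay 10 of the 13 progenitor and 7 of the 29 neuronal peaks. The intervals of the progenitor and neuronal shares overlapped.

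**Figure D2:**
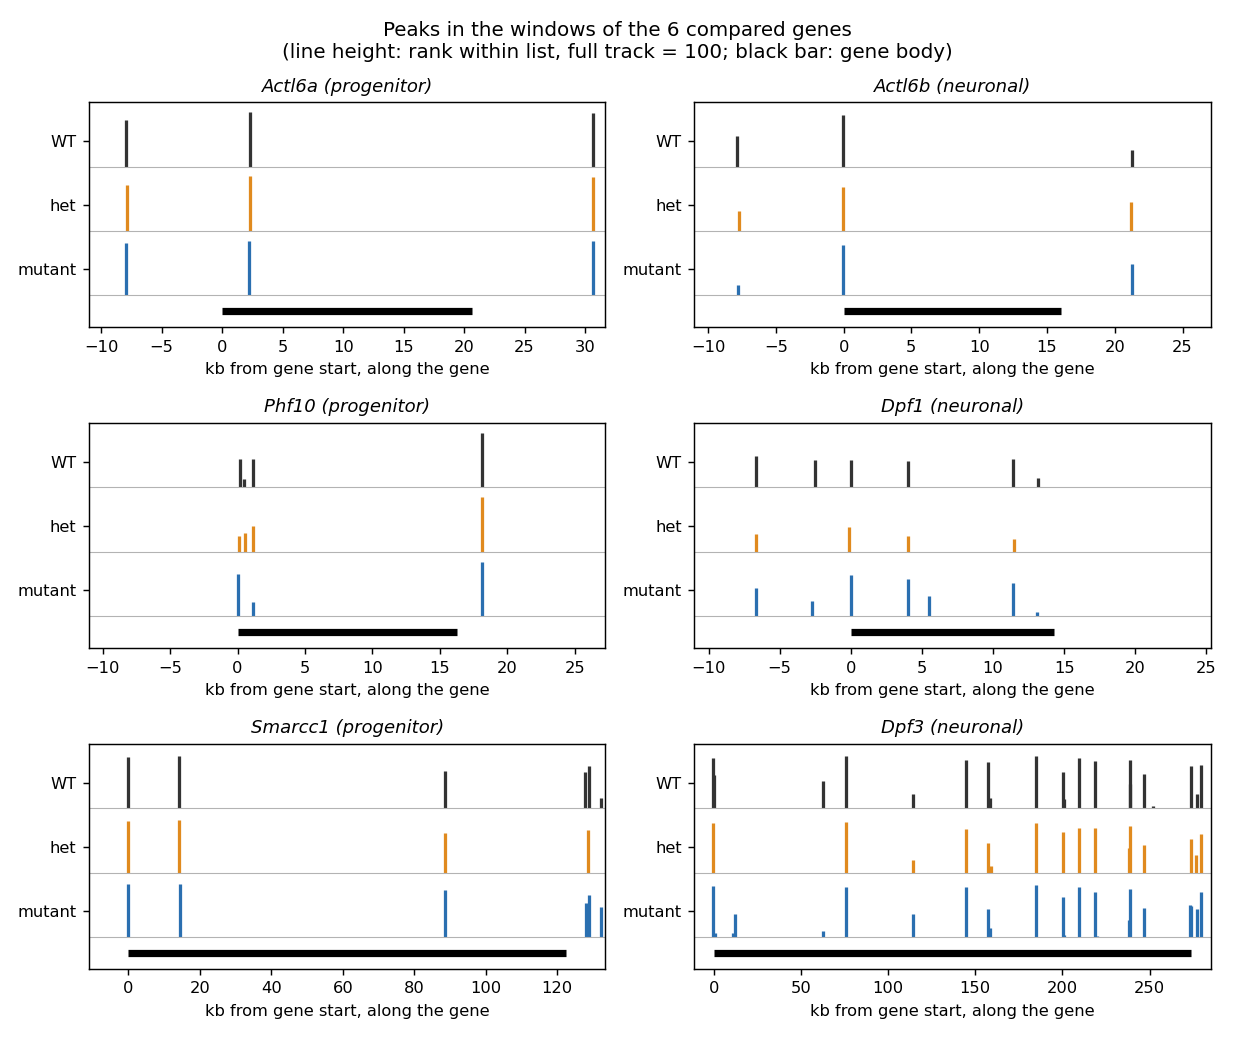
Peak summits in WT, het and mutant along the windows of the 3 progenitor genes (left) and the 3 neuronal genes (right), as distance in kb from the gene start in the direction of transcription, with line height giving the rank within its list and the black bar the gene body. Actl6a and Actl6b carry 3 peaks in each list at like positions, and Dpf3 carries 20 WT, 16 het and 23 mutant peaks, most of them far inside the gene.

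Height changes between WT and mutant were small over the 10 genes. The 127 shared WT peaks had a median log2 change of 0.01 (-0.05 to 0.11, order-statistic interval over peaks), with 62 lower and 65 higher in mutant. The share lower was 48.8%, against 42.4% of all 118098 shared peaks, whose median was 0.08 with a central 95% from -0.66 to 0.86. A change of at least 1 on the log2 scale was called, and 0 of the 127 peaks were called lower (0.411% of all shared peaks) and 3 higher (1.31%). Of those 3, the peaks in Smarcc2 and Dpf3 were small WT peaks covered by a wide mutant peak whose summit lay 605 bp and 535 bp away, so that only the third, in Arid1b, compared the same summit. In mutual pairs the WT peak is the tallest under its mutant peak. Of 125 such pairs, 1 was called higher and 0 lower, against 0.726% and 0.418% of all mutual pairs. Counting intervals excluded 0 for 1 of the 127 peaks on the lower side and for the same 3 on the higher side (0.787% and 2.36%), against 0.498% and 1.39% of all shared peaks. These counts are too few to set the 10 genes apart.

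In the progenitor windows the 13 shared peaks had a median of 0.12 (-0.07 to 0.59), with 5 lower and 8 higher, and 1 was called higher, the small Phf10 peak under a wider mutant peak. In the neuronal windows the 27 shared peaks had a median of -0.11 (-0.27 to 0.14), with 16 lower and 11 higher. The 2 medians had opposite signs. Their intervals overlapped but treat peaks of 1 gene as independent, so they do not compare the 2 groups. A division by place, chosen after these values were seen, separated the medians further. Away from any TSS, all 3 progenitor peaks were higher in mutant (median 0.58), and of 20 shared neuronal peaks 15 were lower and 5 higher (median -0.24), against 43.5% lower and a median of 0.08 for all shared peaks away from a TSS. Of the 15 lower neuronal peaks 12 were in Dpf3, and without it 3 of 3 were lower (median -0.32). Near a TSS the order was the other way round, with a median of -0.01 for 10 progenitor peaks and 0.30 for 7 neuronal peaks. All shared peaks near a TSS had a median of 0.06, with 37.7% lower. Of the 7 neuronal peaks 6 were higher, the small Dpf3 peak with the distant mutant summit among them. The 0.30 was the change of the peak at the TSS of Tfr2 in the Actl6b window, with 12 tags in WT and 15 in mutant. Peaks of 1 gene share libraries and neighbourhood and are not replicates, so the difference was not tested.

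**Figure D3:**
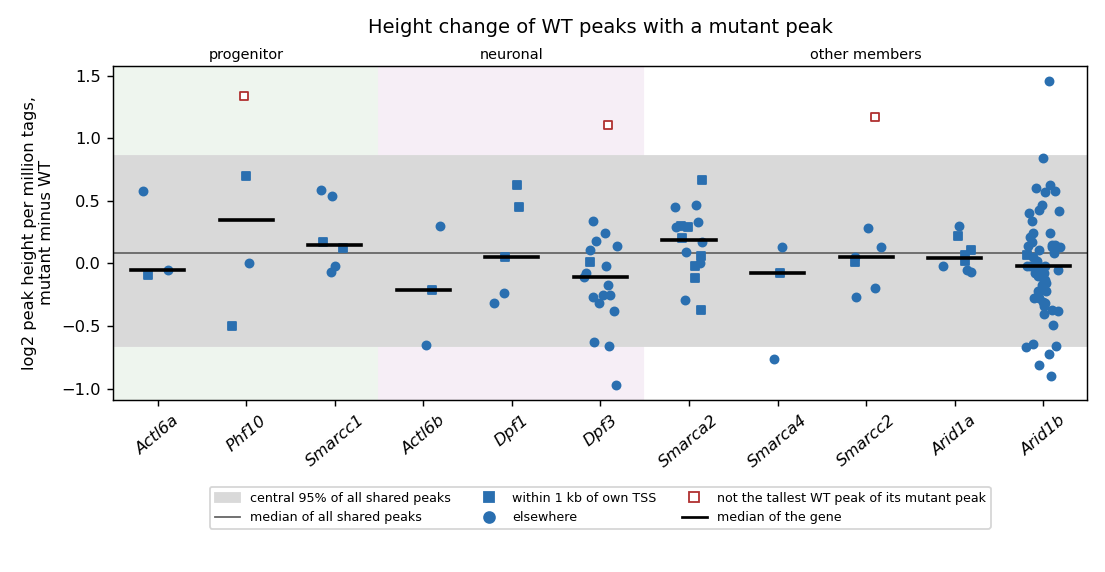
Log2 change of summit height scaled to tags, mutant minus WT, for every WT peak with a mutant peak, by gene, with squares for peaks within 1 kb of the gene's own TSS, circles for others, open squares for WT peaks that are not the tallest one under their mutant peak, and black lines for gene medians. The grey band holds the central 95% of all shared peaks (-0.66 to 0.86), and 1 filled circle, in Arid1b at 1.46, lies above it. Filled circles also lie below it, in Dpf3 (lowest -0.97), Arid1b (lowest -0.90) and Smarca4 (-0.76).

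Actl6a had 1 peak away from promoters, 7.92 kb upstream of the gene start at chr3:32698291-32698701. It had 31 tags in WT and 47 in mutant, a log2 change of 0.58 (-0.10 to 1.29), and 46 in het, where it ranked 84.2 against 84.5 in WT and 94.2 in mutant. Smarcc1 had an intronic peak 88.5 kb into the gene (chr9:110206080-110206349) with 19 tags in WT, 30 in het and 29 in mutant, a change of 0.59 (-0.29 to 1.51). A weaker peak beyond the 3′ end, in an intron of Cspg5, had 17 tags in WT and 25 in mutant (0.54, -0.41 to 1.52) and no het peak. All 3 were higher in mutant, and no counting interval excluded 0.

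Actl6b showed a similar arrangement with the opposite sign. Its upstream peak, 7.83 kb before the gene start at chr5:137545618-137545784, had 17 tags in WT and 11 in mutant, a change of -0.65 (-1.89 to 0.53). It ranked 55.7 in WT and 17.4 in mutant. The het peak, called with other settings, had 19 tags and ranked 35.7, which does not place it between the others in strength. The third peak of its window was at the TSS of Tfr2, with 12 tags in WT, 21 in het and 15 in mutant. Dpf1 had 6 WT, 4 het and 7 mutant peaks, none with a -log10 q of 10 or more in WT. Beside the gene start, a peak 3.98 kb into the gene had 21 tags in WT and 29 in mutant (0.45, -0.41 to 1.33), whereas the upstream peak at chr7:29297201-29297322 had 21 tags in WT and 18 in mutant. The strongest unshared WT peak of all 10 genes was at Dpf1, 2.49 kb upstream (chr7:29301420-29301529). It had 19 tags and a -log10 q of 6.55 and was missing from the het list as well. A mutant peak without overlap lay beside it, 2.73 kb upstream, within the 300 bp used to join peaks. The joined region was thus held by WT and mutant.

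Dpf3, the longest of the compared genes at 274 kb, carried most of the neuronal peaks. Of its 14 shared intronic peaks 11 were lower in mutant and 3 higher, with a median of -0.21, against 42.4% lower among all shared peaks. The strongest of them, 185 kb into the gene, had 69 tags in WT and 66 in mutant. The lowest ratio among the 10 genes was also intronic, 157 kb into Dpf3 at chr12:83330167-83330345, from 31 tags in WT to 16 in mutant, a log2 change of -0.97 (-1.94 to -0.06). That peak was present in het, and its rank fell by 33.2 from 84.5 in WT. The change did not reach the threshold of 1 for a call. Of the 23 mutant peaks of Dpf3, 4 were without a WT peak (17.4%, against 30.7% of all mutant peaks). Of those 4, 1 had a -log10 q of at least 5.

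The DNA around summits away from promoters is given on the plus strand, for the tallest such WT peak of each compared gene (Phf10 had none) and for the Dpf3 peak with the lowest ratio, which was chosen by its value. Capitals mark CCAAT boxes and the E-box CAGATG on either strand. CCAAT was found in 35.4% of the 300-base windows around the summits of the 10 genes and in 36.5% of those of all WT peaks, and CAGATG in 36.7% and 34.8%. CAGCTG was found in 30.6% and 28.6%, and TTGGCA in 25.2% and 27.4%. None of these shares set the 10 genes far from the whole list.
Actl6a upstream (chr3:32698299-32698448): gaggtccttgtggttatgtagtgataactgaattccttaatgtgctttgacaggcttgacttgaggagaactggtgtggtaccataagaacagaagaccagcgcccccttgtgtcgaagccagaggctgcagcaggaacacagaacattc
Smarcc1 intron (chr9:110206159-110206308): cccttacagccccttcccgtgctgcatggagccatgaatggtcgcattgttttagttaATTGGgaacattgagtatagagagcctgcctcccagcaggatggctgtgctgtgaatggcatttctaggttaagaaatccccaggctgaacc
Actl6b upstream (chr5:137545618-137545764): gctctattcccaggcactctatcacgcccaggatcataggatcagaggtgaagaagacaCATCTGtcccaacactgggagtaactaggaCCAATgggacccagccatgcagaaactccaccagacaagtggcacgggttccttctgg
Dpf1 upstream (chr7:29297201-29297322): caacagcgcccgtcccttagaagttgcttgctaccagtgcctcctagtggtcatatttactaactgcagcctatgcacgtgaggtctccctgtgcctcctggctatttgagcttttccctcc
Dpf3 intron, tallest (chr12:83302598-83302747): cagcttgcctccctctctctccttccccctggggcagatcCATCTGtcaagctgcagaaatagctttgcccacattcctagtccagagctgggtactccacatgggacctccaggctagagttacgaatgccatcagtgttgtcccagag
Dpf3 intron, lowest ratio (chr12:83330174-83330323): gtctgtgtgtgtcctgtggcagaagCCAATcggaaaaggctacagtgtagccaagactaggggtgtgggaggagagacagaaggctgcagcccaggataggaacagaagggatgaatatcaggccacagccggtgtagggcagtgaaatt

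Arid1b, whose gene body spans 353 kb, held 68 of the 147 WT peaks, 49 of the het peaks and 76 of the mutant peaks, which is 18.2 WT peaks per 100 kb against 10.7 for the 10 genes. Of its WT peaks 64 were intronic. In mutant, 11 of its WT peaks were missing (16.2%, against 22.8% of all WT peaks). In WT, 18 of its mutant peaks were missing (23.7%, against 30.7% of all mutant peaks). Its 57 shared peaks had a median of -0.02, with 31 lower and 26 higher. It also held the widest range, from -0.90 to 1.46. The largest rise was 145 kb into the gene at chr17:5138868-5139187, from 18 tags in WT to 50 in mutant (1.46, 0.65 to 2.32), with the summits 2 bp apart. In het the same place had 27 tags and ranked 54.8, against 56.0 in WT and 94.2 in mutant. Its -log10 q was 11.5 in het, 7.98 in WT and 39.2 in mutant, so like ranks in het and WT were not like strength. The lowest ratios of Arid1b were at chr17:5065346-5065528, from 24 to 13 tags (-0.90, -2.00 to 0.13), and at chr17:5111073-5111334, from 26 to 15 tags (-0.81, -1.83 to 0.16). The tallest peak away from a TSS, 292 kb into the gene, had 55 tags in WT and 62 in mutant. Without Arid1b, 9 of 79 WT peaks (11.4%) were unshared, 19 of 90 mutant peaks (21.1%) were unshared, and the median change was 0.03.

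The sequence around the summit of the Arid1b peak that rose is shown because it was the only called change with matching summits (plus strand, capitals mark CCAAT on either strand).
Arid1b intron (chr17:5139041-5139187): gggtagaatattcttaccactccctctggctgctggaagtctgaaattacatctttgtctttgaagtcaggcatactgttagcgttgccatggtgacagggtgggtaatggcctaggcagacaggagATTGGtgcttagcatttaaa

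The ATPase genes differed in peak number. Smarca2 had 21 WT, 13 het and 24 mutant peaks, and Smarca4 had 5, 2 and 5. At Smarca2, 5 WT peaks were without a mutant peak (23.8%, against 22.8% of all WT peaks). Of its mutant peaks 7 were without a WT peak (29.2%, against 30.7% of all mutant peaks). The strongest unshared mutant peak of all 10 genes was in its intron, 127 kb from the gene start at chr19:26731970-26732109, with 21 tags and a -log10 q of 10.9, and the het list had a peak there too. The 16 shared peaks of Smarca2 had a median of 0.19 (-0.02 to 0.33), with 4 lower and 12 higher, and the largest change was 0.67 (-0.12 to 1.49). Its tallest peak away from a TSS, 26.1 kb into the gene, had 62 tags in WT and 63 in mutant. Smarca4 had 3 shared peaks, and its only intronic peak of more than 10 WT tags that was shared went from 15 to 9 tags (-0.76, -2.13 to 0.53). At Smarca4, 2 of the 5 WT peaks were without a mutant peak (interval 11.8 to 76.9%), against 22.8% of all WT peaks. Of its 5 mutant peaks, 2 were without a WT peak (interval 11.8 to 76.9%), against 30.7% of all mutant peaks. Both shares lay above those of the whole lists, which the intervals included. These unshared Smarca4 peaks of both lists had a -log10 q under 5.

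Of the scaffold and ARID genes, Smarcc2 had 7 WT, 4 het and 7 mutant peaks, all WT and mutant peaks of it shared, and 4 of its 7 WT peaks lay at the TSS of a neighbour. Arid1a had 8, 8 and 12 peaks, with all WT peaks shared and 4 mutant peaks without a WT peak (33.3%, against 30.7% of all mutant peaks). Of those 4, 1 had a -log10 q of at least 5. The tallest Arid1a peak away from a TSS had 56 tags in WT and 54 in mutant (-0.07, -0.64 to 0.50).

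**Figure D4:**
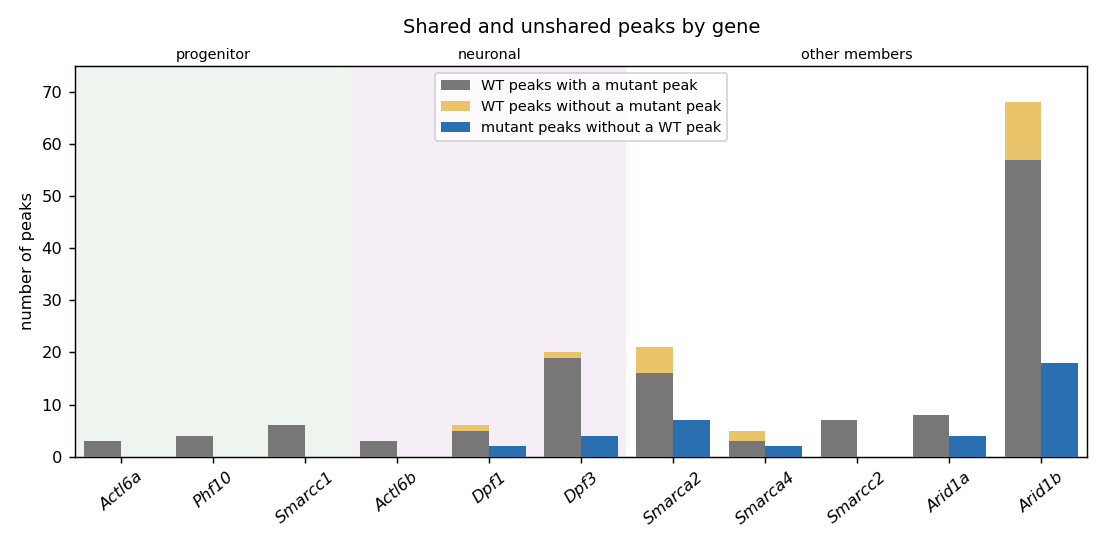
Number of WT peaks with a mutant peak (grey), WT peaks without one (yellow, stacked) and mutant peaks without a WT peak (blue) in the window of each gene. Arid1b holds 68 of the WT peaks, and Actl6a, Phf10, Smarcc1, Actl6b and Smarcc2 have no unshared peak in either direction.

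The 17 other BAF subunit genes were counted for comparison and were not sorted by whether they switch. Their windows held 100 WT, 81 het and 121 mutant peaks in 1101 kb. In mutant, 9 of the WT peaks were missing (9.0%, against 22.8% of all WT peaks). In WT, 28 of the mutant peaks were missing (23.1%, against 30.7% of all mutant peaks). The 91 shared peaks had a median change of 0.05 (-0.02 to 0.11). Of them 1 was called lower and 1 higher, against 0.411% and 1.31% of all shared peaks. All 3 lists together held 71 of the 115 joined regions there (61.7%), against 45.7% of all joined regions and 54.9% for the 10 genes. For the progenitor genes this was 10 of 11 regions and for the neuronal genes 22 of 29.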

How the data were processed

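The ATAC-seq data were 3 deposited peak lists, 1 for each genotype, for which the authors pooled the libraries. Submitters' processing notes name Trim Galore 0.4.1, STAR 2.5.0b, Bowtie 1.0.0, Picard 1.139, MACS2 2.1.0.20150731 and the mm10 build, and the file headers give a cutoff of 0.05 on the q-value and no control. WT and mutant peaks were called with a modelled fragment length of 90 bp and 88 bp, and het peaks with tags shifted by -100 bp and extended to 200 bp from another alignment, so het heights were not compared with the others. Pileup, a signal deposited by the authors, counts the extended tags over a summit, and 50394313 (WT), 30923002 (het) and 51030229 (mutant) tags remained after filtering. The deposited ratio of pileup to local background was used as an alternative measure of height, and the -log10 q values were deposited by the authors too. Deposited -log10 p-values, also given by the authors, were not used.

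Gene windows, TSSs, exons and introns came from GENCODE vM21 for GRCm38, the build of the lists, and promoter sequences from the RefSeq table for GRCm38.p6. Peaks were read with pandas 2.3.3 and numpy 2.4.6, and intervals came from scipy 1.17.1. Overlap was at least 1 bp, and each WT peak was paired with the tallest mutant peak overlapping it, so that 1 mutant peak may pair with several WT peaks. Of 118098 shared peaks, 98.3% were mutual pairs. Heights were pileup divided by the tags of the list, with no pseudocount, and neighbouring peaks of 1 list may be joined in another. Intervals are 95% Wilson for shares and exact binomial for tag ratios, a summit being a maximum, so that these intervals are somewhat too narrow. Those of medians are order-statistic intervals over peaks and treat peaks as independent. Matching of lists was tested on simulated peaks. Named peaks were the 5 unshared peaks of highest -log10 q in WT and in mutant, the 3 largest falls and rises among WT peaks that reached a -log10 q of 5, and per gene the tallest promoter peak and the tallest WT peak away from any TSS, and further peaks were described after their values were seen. The members, the gene groups and the motifs were chosen with earlier results of these data known. Reads per library were not analysed here.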

Additional observations from a re-analysis of the deposited data

How the results depend on the processing

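Of 49 alternatives over 7 results, 37 left the value within its printed interval, or within 1.5 times for a number of peaks. When an overlap of 50% of both peaks was asked for, the WT peaks missing in mutant rose to 26.5%, the mutant peaks missing in WT to 34.9%, and WT peaks with a het peak fell to 55.1%, and over the whole lists these became 35.9%, 43.8% and 50.1%. Among peaks that reached a -log10 q of 5 the shares were 3.77%, 9.01% and 84.9%, and at 10 or more 0%, 3.23% and 98.3%, against 5.78%, 11.2% and 84.2% and then 0.456%, 1.21% and 97% over the whole lists. So at -log10 q of 10 the share of mutant peaks missing in WT, 2 of 62, was no longer below that of the whole list. The median change of the 10 genes changed sign, to -0.07, when centred on all shared peaks and to -0.02 for WT peaks that reached a -log10 q of 5. Centring subtracts the median of all shared peaks, 0.08, from each change, so that the first of these sign changes follows by arithmetic. The cause of the second was not tested. The number of WT peaks was 79 without Arid1b. That alternative, mutual pairs, and leaving out Smarcc1 or Dpf3 from its group were chosen after seeing the data. The neuronal median stayed negative, between -0.21 and -0.08, in all 8 alternatives run, and the progenitor median lay between 0.00 and 0.54, at 0.00 without Smarcc1 and for WT peaks that reached a -log10 q of 5. Centring lowers each median by arithmetic, and the alternatives reuse the same pooled lists, so a kept sign is no added support. The interval over peaks of the main neuronal median, -0.27 to 0.14, included 0. No paired analysis was possible because the libraries of each group were pooled before peak calling, and for the same reason leaving out a replicate could not be run. At the Dpf3 fall, with 31 and 16 tags, the interval ended at -0.06. That peak was the lowest of 127 ratios, and the interval was not adjusted for this choice. The interval therefore does not set the peak apart from counting error, and smaller changes at peaks of that height cannot be told from it either.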
